A study of Mus musculus with 8 samples.

Results

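The fucosylation pathway genes described here were 10 genes listed by symbol, namely the enzymes that make GDP-fucose (*Gmds*, *Tsta3*, *Fuk* and *Fpgt*), its Golgi transporter (*Slc35c1*) and 5 transferases (*Fut4*, *Fut8*, *Fut10*, *Pofut1* and *Pofut2*). All 10 were found among the 23337 gene symbols counted in each liver library, and all 10 passed the filter on low counts that left 14328 genes for testing. The list was drawn up with results of these samples known and names no measured value of its own, so the members' differences are a description of these libraries and not independent evidence. Liver RNA came from 12-week-old C57BL/6 mice on standard chow. WT mice carried the floxed *HRD1* alleles without Cre (HRD1 f/f Alb-Cre-), and the mice labelled Hrd1-/- were HRD1 f/f Alb-Cre+ (HRD1Alb), in which the albumin promoter drives Cre so that *HRD1* is deleted in cells of the hepatocyte lineage and stays in the other cells of the organ. Mice of each genotype were sampled after an overnight fast, or given food again for 4 h after it, giving the groups WT-Fasted, KO-Fasted, WT-Refed and KO-Refed with 2 samples each. Nothing states whether the 2 samples were separate animals, so the p-values measure the spread between these samples.

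Fucose is a sugar that cells add to glycans and, directly, to some proteins. The activated donor, GDP-fucose, is made mostly de novo from GDP-mannose, and a salvage route rescues fucose released in lysosomes or taken up from outside. The donor is carried into the Golgi, where Fut enzymes such as Fut8 and Fut4 fucosylate N-glycans and terminal chains. It is also used in the ER, where Pofut enzymes place fucose on folded repeats of Notch and thrombospondin-like proteins. HRD1 is a ubiquitin ligase of the ER membrane that marks misfolded ER proteins for degradation. Core-fucosylated alpha-fetoprotein from liver is a serum marker used in liver cancer.

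Total counts ranged from 40210576 to 49117080 per library, and the lowest detectable level, set at 3 counts, corresponded to between 0.0611 and 0.0746 CPM (counts scaled to a fixed library size). Levels below are CPM after TMM normalization in edgeR, differences are log2 fold changes with the SE from edgeR's quasi-likelihood test on all 8 libraries, and adjusted p-values are Benjamini-Hochberg values over the 14328 genes. The transcript of the targeted gene, listed as *Syvn1*, was at 110.7 and 99.8 CPM in WT-Fasted, 32.6 and 31.5 in KO-Fasted, 637.1 and 304.8 in WT-Refed, and 453.1 and 132.3 in KO-Refed. It was lower in both KO-Fasted libraries than in both WT-Fasted libraries (adjusted p = 0.170 by edgeR), but the refed groups overlapped, since the library labelled KO-Refed replicate 1 lay between both WT-Refed libraries (adjusted p = 0.391). A count over the whole gene does not separate the deleted exons from the rest, so it checks the genotype labels only in part. KO-Refed replicate 2 stood apart from the other libraries. Its Spearman correlation with replicate 1 over the tested genes was 0.955, against 0.990 to 0.995 in the other groups, and 3204 genes differed at least 2-fold between these replicates, against 424 to 1141. Between the KO-Refed replicates, long transcripts had lower ratios of the second to the first (rho with length = -0.558 across 12968 genes, which are not independent replicates), against -0.114 to 0.0268 elsewhere.

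*Gmds* encodes GDP-mannose dehydratase, which takes the first and committed step of the de novo route. It lies on the minus strand at chr13:31819579-32338740 (GRCm38). It is the member on which the results below turn, together with *Pofut2*, which encodes the ER protein O-fucosyltransferase of thrombospondin repeats and lies on the plus strand at chr10:77259218-77269575. For this reason the bases just upstream of each gene are shown, taken from a window placed by RefSeq (GRCm38.p6). RefSeq starts *Gmds* 196 bases and *Pofut2* 82 bases downstream of the GENCODE start that the positions above use, and only the part of the window before the GENCODE start is printed, with the 20 bases nearest to it in capitals. The *Gmds* stretch is chr13:32338741-32338794 on the minus strand, with 79.6% G and C, and the *Pofut2* stretch is chr10:77259050-77259217 on the plus strand, with 63.1% G and C.
Gmds: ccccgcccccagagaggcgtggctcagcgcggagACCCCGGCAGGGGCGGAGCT
Pofut2: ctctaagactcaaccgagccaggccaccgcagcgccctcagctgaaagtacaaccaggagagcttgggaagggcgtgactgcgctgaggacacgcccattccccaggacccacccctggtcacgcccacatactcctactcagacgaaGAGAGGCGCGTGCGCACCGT
Windows of 300 bases, from 250 before to 50 after a RefSeq start, were given for 6 of the 10 genes (10 windows) and were searched on both strands for 4 motifs. For comparison 32851 mouse windows of this length were searched, which did not cover every chromosome. The ER stress element (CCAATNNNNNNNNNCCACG) was in 0.119% of them, the unfolded protein response element core (TGACGTG) in 2.01%, the ATF4 element core (TGATGNAA) in 3.97% and the E-box (CACGTG) in 7.15%. The E-box and the response element core can share letters. Neither the *Gmds* nor the *Pofut2* window held any of these motifs. The only match in the 10 windows was an ATF4 element core in 1 of the 4 *Fut8* windows, on the minus strand, from 97 to 90 bases before that window's RefSeq start. That window, chr12:77388614-77388913, lies inside the gene as GENCODE places it (chr12:77238125-77476338).

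**Figure D1:**
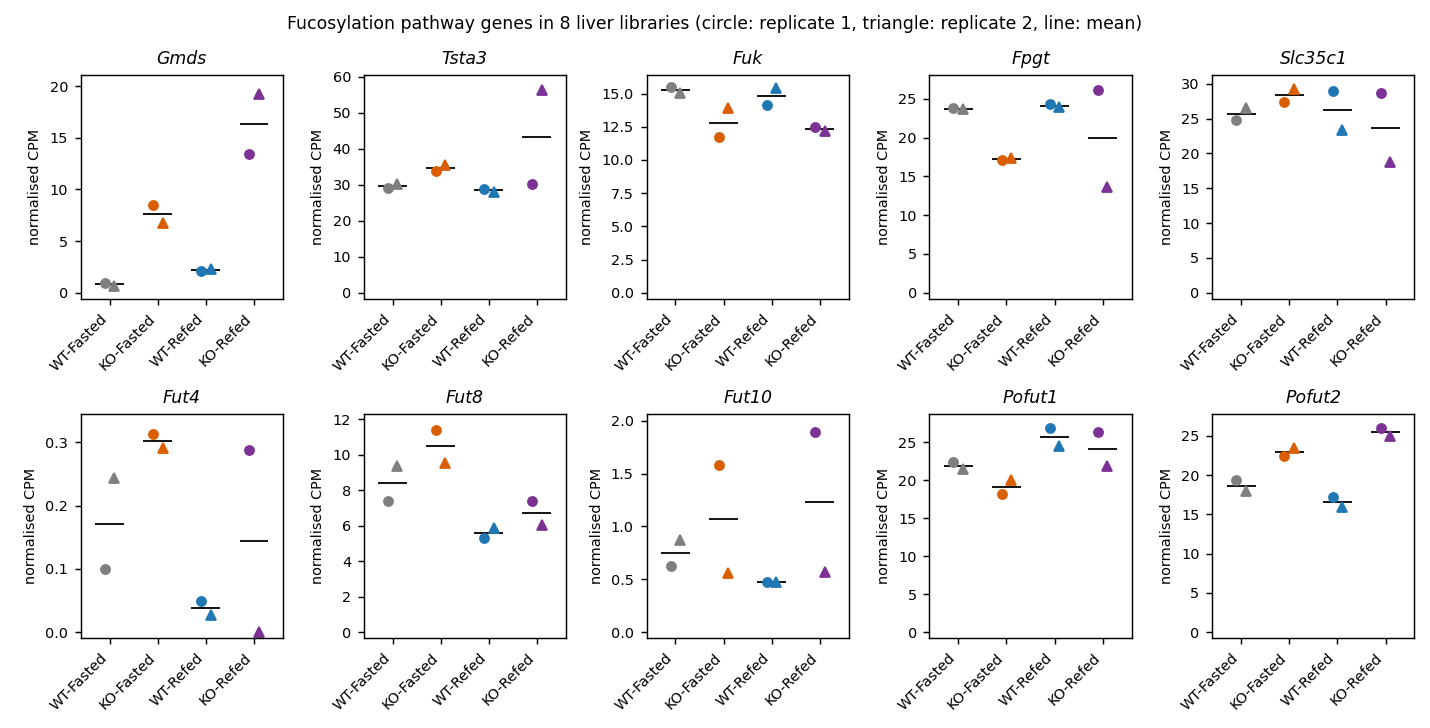
TMM-normalised CPM (vertical axis, linear) of each of the 10 genes in the 4 groups, with a circle for replicate 1, a triangle for replicate 2 and a line for their mean. *Gmds* lies between 0.681 and 2.28 CPM in the 4 WT libraries and between 6.70 and 19.2 in the 4 KO libraries, while in KO-Refed the replicates of *Tsta3*, *Fpgt* and *Fut10* lie far apart.

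In the de novo route, *Gmds* transcripts were at 0.948 and 0.681 CPM in WT-Fasted, 8.49 and 6.70 in KO-Fasted, 2.12 and 2.28 in WT-Refed and 13.4 and 19.2 in KO-Refed. All 4 KO libraries were above all 4 WT libraries, and within each genotype both refed libraries were above both fasted libraries. These levels rested on 38 and 28 counts in WT-Fasted, 86 and 87 in WT-Refed, and 369 to 875 in the KO libraries, so the lowest group was well above 3 counts. *Tsta3*, the GDP-fucose synthase that completes the route (chr15:75924676-75929832), was at 29.2 and 30.3 CPM in WT-Fasted, 33.8 and 35.5 in KO-Fasted, 28.9 and 28.0 in WT-Refed, and 30.3 and 56.3 in KO-Refed. It lay between 28.0 and 35.5 CPM in every library but KO-Refed replicate 2, the library that stood apart.

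In the salvage route, *Fuk*, the fucokinase (chr8:110882456-110902488), was at 15.46 and 15.04 CPM in WT-Fasted, 11.7 and 13.9 in KO-Fasted, 14.1 and 15.4 in WT-Refed, and 12.5 and 12.2 in KO-Refed. It was lower in both KO libraries than in both WT libraries under each feeding condition, with means of 12.8 ± 1.54 against 15.2 ± 0.3004 CPM (SD, n = 2) after the fast and 12.3 ± 0.228 against 14.8 ± 0.894 after refeeding. *Fpgt*, which joins fucose phosphate to GTP (chr3:155084918-155093403), was at 23.8 and 23.6 CPM in WT-Fasted, 17.1 and 17.4 in KO-Fasted, 24.3 and 23.9 in WT-Refed, and 26.2 and 13.6 in KO-Refed. The replicates differed 1.02-fold in KO-Fasted and 1.92-fold in KO-Refed, where one lay above and the other below the WT-Refed libraries. *Slc35c1*, the Golgi carrier of GDP-fucose (chr2:92452764-92460538), was at 24.8 and 26.5 CPM in WT-Fasted, 27.4 and 29.3 in KO-Fasted, 29.0 and 23.4 in WT-Refed, and 28.6 and 18.8 in KO-Refed. Its refed groups overlapped.

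Among the Fut genes, *Fut8*, which adds the core fucose of N-glycans (chr12:77238125-77476338), was at 7.38 and 9.39 CPM in WT-Fasted, 11.4 and 9.55 in KO-Fasted, 5.28 and 5.88 in WT-Refed, and 7.38 and 6.05 in KO-Refed. Both refed libraries lay below both fasted libraries in each genotype, and both KO libraries lay above both WT libraries under each feeding condition. *Fut10*, grouped with the fucosyltransferases by sequence (chr8:31187331-31261738), was at 0.623 and 0.876 CPM in WT-Fasted, 1.58 and 0.563 in KO-Fasted, 0.469 and 0.473 in WT-Refed, and 1.90 and 0.570 in KO-Refed. Its replicates differed 2.75-fold in KO-Fasted and 3.24-fold in KO-Refed. *Fut4*, which makes Lewis-type terminal structures known from white blood cells (chr9:14748320-14752393), had 4 and 10 counts in WT-Fasted, 16 and 16 in KO-Fasted, 2 and 1 in WT-Refed, and 17 and 0 in KO-Refed. It was at or below the 3-count level in both WT-Refed libraries and in KO-Refed replicate 2, so the size of its fold changes depends on how low counts are handled.

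Of the ER transferases, *Pofut1*, the O-fucosyltransferase of the EGF-like repeats of Notch (chr2:153241533-153270247), was at 22.3 and 21.5 CPM in WT-Fasted, 18.2 and 20.1 in KO-Fasted, 26.9 and 24.5 in WT-Refed, and 26.4 and 21.9 in KO-Refed. *Pofut2* was at 19.4 and 18.0 CPM in WT-Fasted, 22.4 and 23.5 in KO-Fasted, 17.3 and 15.9 in WT-Refed, and 26.0 and 25.0 in KO-Refed. All 4 KO libraries were above all 4 WT libraries for *Pofut2*, and the replicates of each group differed by at most 1.08-fold. The deposited counts hold a bidirectional lncRNA that overlaps *Pofut2* on the other strand, *Gm10941*, with 5 to 43 counts against 606 to 1535 for *Pofut2*, and the strand setting of the counting is not given in the sources used here. Genes that overlap the other members in GENCODE M21 were not listed in the files.

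The first comparison asked how the pathway's transcripts differed between HRD1Alb and WT liver after a fast. *Gmds* was 9.30-fold higher in KO-Fasted (log2 fold change 3.22, SE 0.297, edgeR adjusted p = 0.0138), ranking 9th by p-value and 82nd by fold change among the 14328 genes. In counts from whole liver, more cells of a type and more RNA per cell cannot be told apart. It was the only member past the threshold of 0.05, and of all genes tested 0.921% were called higher and 0.433% lower. No member was called lower by edgeR, DESeq2 or limma-trend, and no member other than *Gmds* had an unadjusted p under 0.05, against 18.4% of all genes. The remaining 9 log2 fold changes ran from -0.46 (*Fpgt*) to 0.80 (*Fut4*), with adjusted p-values from 0.346 to 0.801. The 2 groups did not overlap for 6 members that were higher in KO-Fasted (*Gmds*, *Tsta3*, *Slc35c1*, *Fut4*, *Fut8* and *Pofut2*), against 30.6% of all genes, and for 3 that were lower (*Fuk*, *Fpgt* and *Pofut1*), against 34.2%. Of these 3, *Fuk* and *Pofut1* took the opposite sign (0.13 and 0.19) when libraries were scaled by their total counts, which moved the median of all genes by 0.38. The median log2 fold change was 0.26 over the 10 members and -0.02 over all genes. The call for *Gmds* did not hold when any 1 of the 4 fasted libraries was left out, while its log2 fold change stayed between 3.03 and 3.47. Those fits leave 1 library in a group and called almost no gene of all tested, so the lost call was not particular to *Gmds*. Without KO-Refed replicate 2, *Gmds* was at 3.21 (adjusted p = 0.00145) and *Fpgt* was called lower at -0.46 (adjusted p = 0.0120), and 9.66% of the 14642 genes then tested were called higher and 11.6% lower.

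**Figure D2:**
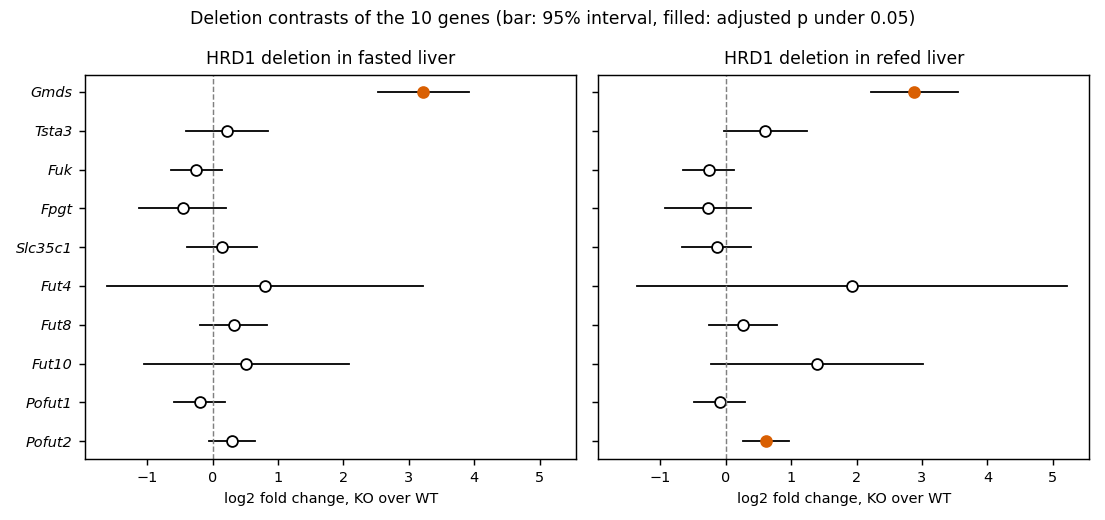
Log2 fold changes of KO over WT (horizontal axis) for the 10 genes in fasted liver (left) and refed liver (right), with 95% intervals from edgeR as bars and filled points where the adjusted p was under 0.05. *Gmds* is at 3.22 and 2.88, *Pofut2* at 0.30 and 0.62, and the intervals of the other genes include 0 in both panels.

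The second comparison put the same question to refed liver, with different libraries. *Gmds* was 7.38-fold higher in KO-Refed than in WT-Refed (log2 fold change 2.88, SE 0.282, edgeR adjusted p = 0.00674). *Pofut2* was 1.54-fold higher (log2 fold change 0.62, SE 0.151, adjusted p = 0.0425). These were the 2 members called higher, where 7.09% of all genes were called higher and 4.84% lower, and no member was called lower by edgeR, DESeq2 or limma-trend on all 8 libraries. The groups did not overlap for 5 members that were higher (*Gmds*, *Tsta3*, *Fut8*, *Fut10* and *Pofut2*), against 30.7% of all genes, and for 1 that was lower (*Fuk*), against 30.1%. The median log2 fold change was 0.44 over the members and 0.04 over all genes. For *Tsta3* the log2 fold change was 0.60 (adjusted p = 0.164) with both KO-Refed libraries, 0.086 without replicate 2 and 0.98 without replicate 1. For *Fpgt* it was -0.28 (adjusted p = 0.4996) with both, 0.11 without replicate 2 and -0.83 without replicate 1, so its direction depended on the library kept. Without replicate 2, *Fut4*, whose WT-Refed level rests on 2 and 1 counts (adjusted p = 0.0456), and *Fut10* (1.999, adjusted p = 0.0473) were called higher beside *Gmds* (2.60) and *Pofut2* (0.64), where 11.9% of all genes were called higher and 11.7% lower. Without replicate 1, *Gmds* (3.11), *Pofut2* (0.58) and *Tsta3* (0.98, adjusted p = 0.000244) were called higher and *Fpgt* (-0.83, adjusted p = 0.000677) and *Slc35c1* (-0.48, adjusted p = 0.0285) lower, where 25% of all genes were called higher and 27.8% lower. Neither call held when either WT-Refed library was left out. Those fits leave 1 library in that group and called almost no gene of all tested. The *Pofut2* call passed in 9 of 18 alternatives, and was also lost when any 1 fasted library was left out. By edgeR it was lost with the replicate block (adjusted p = 0.0571) and without the low-count filter (adjusted p = 0.0623). With only the 4 refed libraries (adjusted p = 0.208) edgeR called 0 of all genes in either direction.

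The third comparison concerned refeeding. In WT liver *Gmds* was 2.70-fold higher after refeeding (log2 fold change 1.43, SE 0.295), which missed the threshold (edgeR adjusted p = 0.0547). No member was called in WT liver, where 1.2% of all genes were called higher and 1.41% lower, while 2 members (*Gmds* and *Fut8*) had an unadjusted p under 0.05, against 16.3% of all genes. DESeq2 called *Gmds* higher in this contrast (adjusted p = 0.00268), as did limma-trend (adjusted p = 0.0462) and the fits without either KO-Refed library. *Fut8* was 1.502-fold lower (log2 fold change -0.59, SE 0.222, adjusted p = 0.247). The WT groups did not overlap for 3 members that were higher after refeeding (*Gmds*, *Fpgt* and *Pofut1*), against 30.8% of all genes, and for 5 that were lower (*Tsta3*, *Fut4*, *Fut8*, *Fut10* and *Pofut2*), against 29.6%, and *Tsta3* took the opposite sign (0.087) with total-count scaling. In HRD1Alb liver *Gmds* was 2.14-fold higher after refeeding (log2 fold change 1.101, SE 0.261, edgeR adjusted p = 0.0408), the one member called, where 5.43% of all genes were called higher and 5.05% lower. *Fut8* was 1.56-fold lower there (log2 fold change -0.64, SE 0.219, adjusted p = 0.101). The KO groups did not overlap for 3 higher members (*Gmds*, *Pofut1* and *Pofut2*), against 29.2% of all genes, and for 2 lower members (*Fut4* and *Fut8*), against 29.5%. The *Gmds* call in HRD1Alb liver did not hold when any 1 WT or KO-Fasted library was left out. Without either KO-Fasted library few of all genes were called. Nor did the *Gmds* call hold with limma-trend (adjusted p = 0.0522) or with edgeR and the replicate block (adjusted p = 0.0571). With only the 4 HRD1Alb libraries (adjusted p = 0.180) edgeR called 0 of all genes in either direction. Without KO-Refed replicate 2, which leaves 1 library in that group, the log2 fold changes were 0.82 for *Gmds*, 0.60 for *Fpgt* and 0.46 for *Pofut1*. Without KO-Refed replicate 1, *Gmds* (1.33) and *Tsta3* (0.70, adjusted p = 0.000838) were called higher, where 24.8% of all genes were. In that fit *Slc35c1* (-0.59, adjusted p = 0.0124), *Fut8* (-0.80, adjusted p = 0.0182), *Fut4*, which has 0 counts in the KO-Refed library kept (adjusted p = 0.00908), and *Fpgt*, at the opposite sign (-0.35, adjusted p = 0.0264), were called lower, where 26.6% of all genes were. The refeeding contrasts share libraries with the deletion contrasts, so their values are given side by side only.

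In the test of whether genotype changed the effect of refeeding, no member and no gene of the 14328 was called by edgeR, so 0% were called in either direction. At an unadjusted p under 0.05 there were 1209 genes and 0 members, and DESeq2 called 57 genes higher and 48 lower, none of them a member. The interaction was -0.33 (SE 0.388, adjusted p = 0.742) for *Gmds* and 0.32 (SE 0.212, adjusted p = 0.641) for *Pofut2*, on the log2 scale. Without KO-Refed replicate 2, 0.458% of all genes were called higher and 0.232% lower in this test, and again no member. Without KO-Refed replicate 1 instead, 15.4% were called higher and 18% lower, among them *Tsta3* (0.76, adjusted p = 0.00425) and *Slc35c1* (-0.62, adjusted p = 0.0403), so the near absence of calls depended on the KO-Refed library kept. *Gmds* was at -0.62 (adjusted p = 0.410) without replicate 2 and at -0.10 (adjusted p = 0.836) without replicate 1. A difference of the *Gmds* response between genotypes was not detectable in these fits, which does not show that the responses were alike.

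Levels of different genes were compared only per kilobase of the longest annotated transcript. On this scale *Tsta3* was the highest member in every group, at 18.6 ± 0.492 CPM per kb (SD, n = 2) in WT-Fasted, 21.6 ± 0.764 in KO-Fasted, 17.8 ± 0.384 in WT-Refed and 27.0 ± 11.5 in KO-Refed. *Fut10* and *Fut4* were the lowest in each group, with group means of at most 0.350 CPM per kb. *Gmds* stood 8th of the 10 in both WT groups, at 0.407 ± 0.0940 in WT-Fasted and 1.1004 ± 0.0568 in WT-Refed, and its libraries overlapped with neither neighbour in the order. In KO-Fasted it stood 4th, at 3.79 ± 0.630, where its range overlapped with that of *Pofut1*, the next gene. In KO-Refed its mean stood 2nd, at 8.13 ± 2.04, with a range that overlapped those of *Slc35c1* and *Fpgt*. In replicate 1 *Gmds* (6.69) lay below *Slc35c1* (9.12) and *Fpgt* (7.43). Only in replicate 2, the library that stood apart, did *Gmds* (9.58) lie above both (5.99 and 3.87). Of the remaining genes, *Slc35c1*, *Fpgt* and *Pofut1* kept this order of means in all 4 groups, although neighbouring genes overlapped in KO-Refed. *Fuk* stood above *Pofut2* in WT-Fasted (3.84 against 2.66) and WT-Refed (3.72 against 2.37). It stood below *Pofut2* in KO-Fasted (3.22 against 3.28), where the 2 genes overlapped, and in KO-Refed (3.11 against 3.64).

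**Figure D3:**
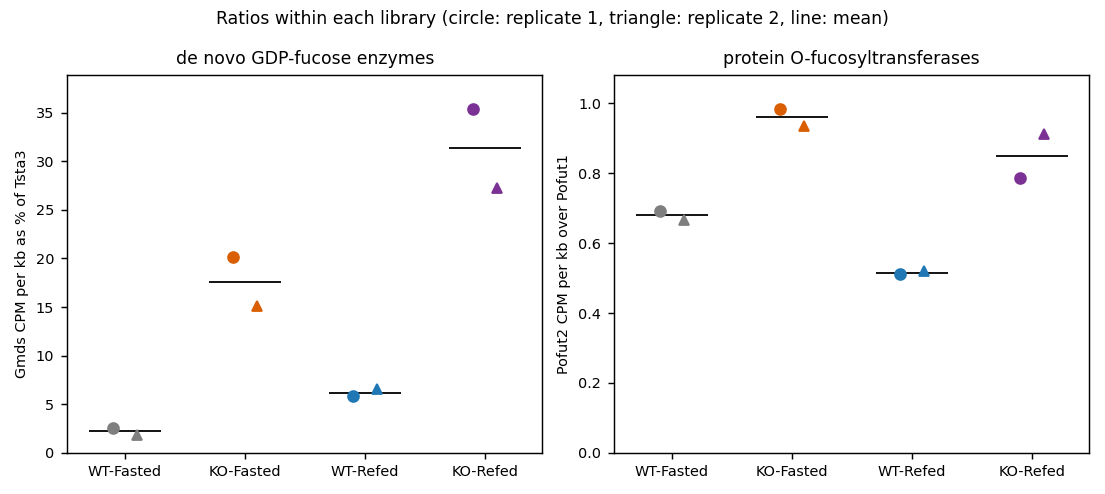
Ratios formed within each library, for which no scaling between libraries is needed: *Gmds* as a percentage of *Tsta3* (left) and *Pofut2* over *Pofut1* (right), both from CPM per kb, with a circle for replicate 1, a triangle for replicate 2 and a line for the mean. *Gmds* is at 1.80% to 6.52% of *Tsta3* in the WT libraries and at 15.1% to 35.4% in the KO libraries.

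Ratios within a library do not depend on how libraries are scaled to each other. The 2 de novo enzymes were counted unequally in every library. *Gmds* per kb amounted to 2.60% and 1.80% of *Tsta3* in WT-Fasted, 20.1% and 15.1% in KO-Fasted, 5.88% and 6.52% in WT-Refed, and 35.4% and 27.2% in KO-Refed. All 4 KO libraries were above all 4 WT libraries. Between the ER transferases, *Pofut2* per kb was 0.693 and 0.667 times *Pofut1* in WT-Fasted, 0.984 and 0.936 in KO-Fasted, 0.512 and 0.519 in WT-Refed, and 0.787 and 0.912 in KO-Refed. The KO libraries were again above the WT libraries, and this ratio was lower after refeeding in both genotypes. Between the salvage enzymes, *Fpgt* was 1.42 to 1.77 times *Fuk* in the fasted libraries, and in KO-Refed it was 2.36 times in replicate 1 and 1.26 times in replicate 2.

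**Figure D4:**
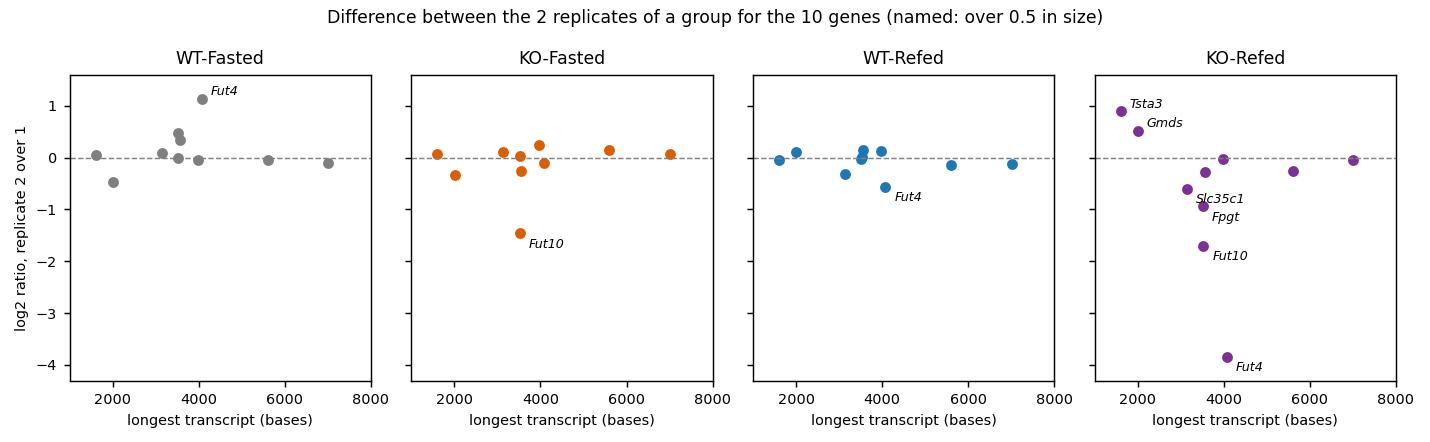
Log2 ratio of replicate 2 to replicate 1 (vertical axis) against the length of the longest annotated transcript in bases (horizontal axis) for the 10 genes, 1 panel per group, with genes named where the ratio exceeds 0.5 in size. In KO-Refed *Tsta3* and *Gmds*, the shortest transcripts, are at 0.89 and 0.52, while *Slc35c1*, *Fpgt*, *Fut10* and *Fut4* lie between -0.61 and -3.84.

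The split between the KO-Refed replicates followed the members' lengths only in part. *Tsta3* (1603 bases) and *Gmds* (2003 bases) were higher in replicate 2, by 0.89 and 0.52 on the log2 scale. *Slc35c1* (3139 bases, -0.61), *Fpgt* (3518 bases, -0.94), *Fut10* (3527 bases, -1.70) and *Fut4* (4074 bases, -3.84) were lower in it. *Pofut2* had the longest transcript (7010 bases) and was nearest to 0 after *Fuk* (3972 bases, -0.038), at -0.056. With a correction for transcript length the refed deletion contrast was 2.64 for *Gmds* (adjusted p = 0.00402) and 1.03 for *Pofut2* (adjusted p = 0.0171).

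Genes that supply, receive or extend fucose were counted from a list of 32, of which 29 were tested, chosen by role with earlier results of these data known. In fasted liver edgeR called 0 of the 29 between genotypes, with 7 at an unadjusted p under 0.05 (24.1%, against 18.4% of all genes). DESeq2 called 3 higher (*Fut11*, *Gmppa* and *Pmm1*, 10.3%), beside 632 of the 14328 genes. From limma-trend there were 0, beside 172 genes higher and 88 lower. In refed liver edgeR called 2 higher (6.90%, against 7.09% of all genes) and 0 lower, with 10 at an unadjusted p under 0.05 (34.5%, against 33.3% of all genes). DESeq2 called 6 higher (20.7%) and 2 lower (6.90%), beside 1704 and 1486 of the 14328 genes. From limma-trend there were 2 higher (6.90%) and 1 lower (3.45%), beside 968 and 766 genes. With refeeding, edgeR called 1 higher in WT liver, and 2 higher and 1 lower in HRD1Alb liver. The call in WT liver was 3.45% of the 29, against 1.2% of all genes, and those in HRD1Alb liver were 6.90% and 3.45%, against 5.43% and 5.05%. Among the 5 genes that supply GDP-mannose, the substrate of *Gmds*, *Pmm1*, a phosphomannomutase, was at 5.14 and 5.11 CPM in WT-Fasted, 10.4 and 8.72 in KO-Fasted, 3.90 and 4.57 in WT-Refed, and 10.9 and 15.5 in KO-Refed. All 4 KO libraries were above all 4 WT libraries, and *Pmm1* was called higher in refed liver (3.11-fold, log2 fold change 1.64, SE 0.238, adjusted p = 0.0130) and not in fasted liver (0.90, adjusted p = 0.109). *Pmm2*, another phosphomannomutase, went the other way. It was at 50.3 and 53.2 CPM in WT-Fasted, 42.4 and 42.5 in KO-Fasted, 61.3 and 66.6 in WT-Refed, and 41.0 and 46.0 in KO-Refed. Its edgeR log2 fold change was -0.29 in fasted liver (adjusted p = 0.358) and -0.56 in refed liver (adjusted p = 0.0511), where DESeq2 and limma-trend called it lower. *Gmppb*, the catalytic subunit of GDP-mannose pyrophosphorylase, was at 11.8 and 12.9 CPM in WT-Fasted, 17.1 and 17.1 in KO-Fasted, 64.1 and 46.1 in WT-Refed, and 89.8 and 87.5 in KO-Refed. It rose with refeeding in WT liver (4.46-fold, log2 fold change 2.16, SE 0.195, adjusted p = 0.00685) and in HRD1Alb liver (5.18-fold, 2.37, SE 0.196, adjusted p = 0.00348), and its deletion contrast in refed liver was 0.69 (adjusted p = 0.0555).

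**Figure D5:**
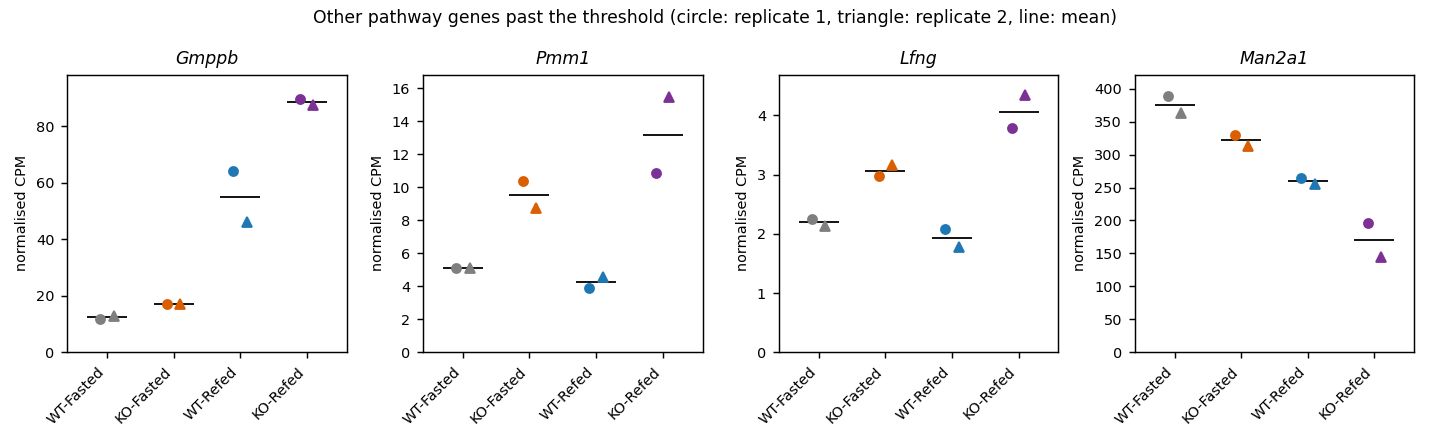
TMM-normalised CPM (vertical axis, linear) of 4 other pathway genes past the threshold in at least 1 contrast, with a circle for replicate 1, a triangle for replicate 2 and a line for the mean. *Gmppb* is between 11.8 and 17.1 CPM in the fasted libraries and between 46.1 and 89.8 in the refed libraries, while *Pmm1* and *Lfng* are higher in the KO libraries.

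Of the 4 genes that elongate O-linked fucose, *Lfng*, which extends the fucose of Notch, was at 2.24 and 2.14 CPM in WT-Fasted, 2.97 and 3.16 in KO-Fasted, 2.07 and 1.79 in WT-Refed, and 3.79 and 4.34 in KO-Refed. It was called higher in refed HRD1Alb liver (log2 fold change 1.07, SE 0.229, adjusted p = 0.0311). Of the 3 genes that build the N-glycan ahead of core fucose, *Man2a1*, the Golgi mannosidase, was called lower with refeeding in HRD1Alb liver (-0.92, adjusted p = 0.0260) and *Mgat2* higher (0.89, adjusted p = 0.0491). Among 5 other fucosyltransferases *Fut9* was listed at 0 in every library and *Fut2* did not pass the filter, and neither *Fut1*, *Fut7* nor *Fut11* was called by edgeR on all 8 libraries in any contrast. Nor did that fit call a gene among the 3 for release and reuse of fucose, the second transporter family member *Slc35c2* or the 10 tested acceptors of O-fucose, which include *Notch1* to *Notch4*. Of the calls that rest on KO-Refed libraries, without replicate 2 and without replicate 1 in turn, *Pmm1* was at 1.36 and 1.86, *Lfng* at 0.97 and 1.16, *Man2a1* at -0.72 and -1.15 and *Mgat2* at 1.18 and 0.54. Each of these fits leaves 1 KO-Refed library, so only the size of the difference is given. Over the 18 alternatives, *Pmm1* passed the threshold in 15, *Lfng* in 11, *Man2a1* in 10 and *Mgat2* in 6, and limma-trend did not call *Mgat2*. Which genes of the list were called, acceptors of O-fucose and *Slc35c2* included, changed in fits without 1 KO-Refed library, and those calls are not counted here. With all 8 libraries *Fut11* was at 1.17 in fasted liver and 0.82 with refeeding in WT liver, and DESeq2 called it in both contrasts.

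The summed level of 6 Kupffer cell and macrophage markers was 84.3 to 93.9 CPM in WT-Fasted, 221 to 297 in KO-Fasted, 96.5 to 96.9 in WT-Refed and 202 to 432 in KO-Refed, with none of the 6 at 0. Of these 2 were called higher in fasted and 6 in refed HRD1Alb liver, including *Cd68* (log2 fold changes of 2.20 and 2.01). The 6 stellate cell markers summed to 180 to 363, 437 to 446, 166 to 205 and 347 to 492 CPM in the same order of groups, and 3 markers of dividing cells to 2.99 to 4.28, 11.7 to 13.7, 2.94 to 3.61 and 7.82 to 9.78 CPM. The 5 hepatocyte markers, *Alb* included, summed to between 133130 and 145347 CPM in WT-Fasted, between 85437 and 85492 in KO-Fasted, between 108180 and 114547 in WT-Refed and between 61732 and 99664 in KO-Refed, and none was at 0. In the same order of groups, 6 endothelial cell markers summed to 114 to 132, 126 to 150, 113 to 130 and 133 to 141 CPM. The 5 cholangiocyte markers summed to 16.8 to 22.8, 15.1 to 16.1, 9.11 to 11.3 and 10.9 to 16.8 CPM. Between genotypes, edgeR called 0 markers of these 2 lists. The part of these cell types in the *Gmds* difference between genotypes was not tested.

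The genes whose log2 CPM followed that of a member most closely over the 8 libraries are given as a description, since these libraries share 4 groups and differ in depth and quality. For *Gmds* they were *Mpeg1*, a gene expressed in macrophages (Pearson r = 0.989), *Eif2d* (0.987) and *Alg3*, a mannosyltransferase of the ER (0.986), among 11920 genes with a mean of at least 1 CPM. *Mpeg1* was at 19.9 ± 1.57 CPM (SD, n = 2) in WT-Fasted, 49.3 ± 6.81 in KO-Fasted, 27.1 ± 1.79 in WT-Refed and 57.8 ± 8.52 in KO-Refed, so its groups stood in the same order as those of *Gmds* with a smaller fold. For *Tsta3* they were *Dctpp1* (0.991), *2310039H08Rik* (0.989) and *Eif3k* (0.987), all of which shared its high value in KO-Refed replicate 2. For *Slc35c1* they were *Slc29a3* (0.965), *Kif26a* (0.963) and *Pacs1* (0.958), and for *Fut8* they were *Astn2* (0.978), *Adamtsl4* (0.971) and *Map4k4* (0.968).

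The genes beside *Gmds* on its chromosome were examined after its values were seen. Of 10 neighbours 8 were tested, and 1 was called in the deletion contrasts, *Serpinb1a*, a protease inhibitor gene. Its log2 fold change by edgeR was 1.89 in fasted liver (adjusted p = 0.0237) and 1.33 in refed liver (adjusted p = 0.0198). Of all genes tested, 0.921% were called higher in fasted and 7.09% in refed liver. The other 7, *Exoc2* and *Foxc1* among them, were not called in either deletion contrast. Of these, *Wrnip1* was at -0.95 in fasted liver (edgeR adjusted p = 0.0543). It was called lower with refeeding in WT liver (-1.73, adjusted p = 0.0120) and in HRD1Alb liver (-1.21, adjusted p = 0.0119), where 1.41% and 5.05% of all genes were.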

How the data were processed

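Mouse liver RNA was sequenced in 8 samples, 2 in each of 4 groups taken from the labels. The values the authors deposited are raw read counts per gene symbol. The paper names ERANGE for counting, while the submitters' processing notes name cutadapt, STAR, HTSeq, DESeq2 and the mm10 build. Versions, annotation and strand setting are not given in the sources used here. RPKM values and limma results, which the paper describes, were not used here.

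Counts were fitted in R 4.3.3 with edgeR 4.0.16 (filterByExpr with a minimum count of 10 and a minimum total of 15, TMM normalization, quasi-likelihood test, 1 model with 4 groups and no block). The SE was the absolute log2 fold change over the root of the F statistic, and log CPM used a prior count of 1. The common dispersion was 0.0573. With 2 samples against 2, the smallest p of an exact permutation test is 0.333, so the p-values rest on the spread shared across genes. TMM factors ranged from 0.837 to 1.22. Intervals of fold changes come from this SE, and the 3-count floor covers counting error only. The labels name no batch, and no value within batches could be given. Positions and lengths were taken from GENCODE M21 by symbol, and promoter windows from RefSeq. Lengths were found for 12968 tested genes (90.5%).

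Named were all 10 members, other pathway genes past an adjusted p of 0.05 and, for 4 members, the 3 genes most like each in level. Members and lists were chosen with earlier results of these data known. Alternatives were RLE normalization, the DESeq2 1.42.0 Wald test, limma 3.58.1 trend, no low-count filter, at least 10 counts in every sample, a fit to only the 4 samples compared, a block for the replicate number, a length correction, both together, and each of the 8 samples left out in turn. A fit that leaves out 1 sample has 1 library in that group, so its p-values take no spread from that group. Scaling by total counts was added after seeing the data. The fits were tested on simulated data first. Python 3.11.15 with matplotlib 3.10.9 made the plots.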

Additional observations from a re-analysis of the deposited data

Results flagged for a closer look

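*Pofut2* was flagged because its refeeding response had opposite directions in the 2 genotypes. Both WT-Refed libraries (17.3 and 15.9 CPM) were below both WT-Fasted libraries (19.4 and 18.0 CPM), and both KO-Refed libraries (26.0 and 25.0 CPM) were above both KO-Fasted libraries (22.4 and 23.5 CPM). The difference of the responses was 0.32 on the log2 scale (SE 0.212), and edgeR's test of it did not pass the threshold (adjusted p = 0.641 over the 14328 genes). The responses themselves were -0.17 in WT liver (adjusted p = 0.672) and 0.15 in HRD1Alb liver (adjusted p = 0.514), and neither was called. Over 17 alternatives the difference ran from 0.16 to 0.72, with adjusted p-values from 0.180 to 0.904.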

How the results depend on the processing

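Over the 4 contrasts, the members gave 714 values under the alternatives, of which 637 kept their direction and their side of the threshold. With the direction kept, 25 lost a call and 25 gained one. Another 27 changed sign, whether called or not, all of them in members not called in the main analysis. *Gmds* kept its direction in every alternative, from 3.03 to 3.59 in fasted and from 2.60 to 3.11 in refed liver between genotypes, and passed the threshold in 14 and 15 of 18 alternatives. *Pofut2* in refed liver ran from 0.56 to 1.03 and passed it in 9 of 18. With libraries scaled by total counts, which moved the median of all genes by 0.38, 0.22 and 0.15 in the fasted, refed and WT refeeding contrasts, *Fuk* (0.13) and *Pofut1* (0.19) changed sign between genotypes in fasted liver, *Slc35c1* (0.11) and *Pofut1* (0.14) in refed liver, and *Tsta3* (0.087) and *Fuk* (0.10) with refeeding in WT liver. The length correction, alone and with the block, turned *Pofut1* in refed liver (0.19 both times), and *Tsta3* (-0.11 both times) and *Fuk* (0.020 and 0.023) with refeeding in HRD1Alb liver. The cause was not tested.

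Members called higher in refed liver numbered 1 without the low-count filter, 1 with the replicate block and 0 with only the 4 samples of the contrast, against 2. Of all genes, these settings called 1036, 794 and 0 higher, against 1016. Members called higher with refeeding in WT liver numbered 1 (*Gmds*) under total-count scaling, DESeq2, limma-trend and no filter, against 0. The number was also 1 with only 4 samples, the length correction and the block with it. In the same order, 162, 496, 189, 211, 909, 361 and 336 of all genes were called higher, against 172. In HRD1Alb liver the members called higher numbered 0 under limma-trend, only 4 samples and the block, against 1. With the length correction, alone or with the block, they numbered 2 (*Gmds* and *Pofut1*). In the same order, 703, 0, 649, 1083 and 992 of all genes were called higher, against 778. Members called lower in fasted liver numbered 1 (*Fpgt*) with only the 4 samples, against 0, where 881 of all genes were called lower, against 62. Same-numbered samples share only a number in the labels (correlation of their deviations 0.0161 to 0.179 in 6 pairs of groups). With the replicate block *Pofut2* in refed liver was at 0.62 (adjusted p = 0.0571) and *Gmds* with refeeding in HRD1Alb liver at 1.102 (adjusted p = 0.0571), and no other member changed its call.

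Leaving out 1 sample gave 0 to 1 members higher and 0 to 1 lower in fasted liver, 0 to 4 and 0 to 2 in refed liver, 0 to 1 and 0 with refeeding in WT liver, 0 to 3 and 0 to 4 in HRD1Alb liver, and 0 to 1 each way in the interaction. Calls over all genes varied widely too in the refeeding and interaction contrasts. They were most numerous without KO-Refed replicate 1, and few or no genes were called in some other fits. The ranges for members are therefore not particular to these genes. The values of members that changed sign in these fits ran from -0.42 to 1.07 for *Fut10* in fasted liver. In refed liver they ran from -0.83 to 0.11 for *Fpgt*, from -0.48 to 0.12 for *Slc35c1*, from -3.87 to 2.83 for *Fut4* and from -0.24 to 0.033 for *Pofut1*. With refeeding in WT liver they ran from -0.11 to 0.0080 for *Fuk* and from -0.14 to 0.18 for *Slc35c1*. In HRD1Alb liver they ran from -0.19 to 0.70 for *Tsta3*, from -0.17 to 0.073 for *Fuk*, from -0.35 to 0.60 for *Fpgt*, from -0.59 to 0.014 for *Slc35c1* and from -0.91 to 1.14 for *Fut10*. Over all genes, the calls between genotypes in fasted liver (132 higher and 62 lower) ran from 0 to 1436 and from 0 to 1723 in these fits, and those in refed liver (1016 and 693) from 1 to 3653 and from 0 to 4052. With total-count scaling they were 840 and 47 in fasted and 1975 and 283 in refed liver, and with refeeding 162 and 76 in WT liver (172 and 202 in the main analysis) and 644 and 428 in HRD1Alb liver (778 and 723). DESeq2 called 632 and 462 in fasted liver and 1704 and 1486 in refed liver.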
